A study of Mus musculus with 12 samples.

Results

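Genes that copy DNA and genes that divide the cell were followed in mouse pancreatic tumours with and without inhibition of the colony-stimulating factor 1 receptor, CSF1R, the receptor on which most macrophages depend. The set was a given list of 54 genes, 26 of DNA replication and 28 of mitosis. Its members were found as every array probe whose annotated symbol is on the list. Of the 54 genes, 52 had a probe and 43 were bright enough to be tested, 24 of replication and 19 of mitosis, among 9788 genes tested in all. The tumours grew in adult female C57BL/6J mice after surgical implantation of syngeneic pancreatic ductal adenocarcinoma cell lines with matrigel into the pancreas. Of the 9 tumours, 4 came from mice given vehicle in the chow (Vehicle) and 5 from mice given a CSF1R inhibitor in the chow (CSF1Ri), in both cases for 8 days once tumours were established. All animals were perfused with PBS-heparin and all tumours were digested with collagenase, so each sample is RNA of a whole tumour with its stroma and immune cells, and no untreated pancreas or cultured cells are among the samples. The sources used here do not give the compound, its dose or which of the cell lines each mouse received.

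There were 12 Illumina BeadArrays, because Vehicle 1, Vehicle 3 and CSF1Ri 1 each had a second array titled Hyb_B, which was averaged with the first. On each array 16219 to 17847 of 45281 probes were detected. Levels are normalised log2 intensities, so a difference of 1 is a 2-fold change, and fold changes are given on that scale as the CSF1Ri mean minus the Vehicle mean. The keratin genes Krt7, Krt8, Krt18 and Krt19, which mark ductal epithelium, were detected on every array of both groups, whereas the probe of the epithelial gene Epcam was detected on none. Csf1r itself fell from 7.46 ± 0.29 (SD, n = 4) to 6.24 ± 0.32 (SD, n = 5) on the log2 scale, with an adjusted p of 0.0345 in limma. The macrophage marker mean, relative to each gene's mean over the 9 tumours, was 0.85 ± 0.23 in Vehicle and -0.68 ± 0.35 in CSF1Ri.

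Before a cell copies its DNA, the MCM helicase is loaded at replication origins and then activated, after which polymerases, a sliding clamp and its loader synthesise the new strands. Entry into mitosis is driven by the kinase CDK1 with its cyclins, and chromosomes are then captured by kinetochores, checked and pulled apart by spindle motors. Messages for the replication genes are made mainly from late G1 into S phase under E2F factors. Those for mitosis genes are made mainly in G2 and M phase. The DREAM and B-MYB to FOXM1 complexes control them through CHR elements, and CCAAT boxes are common in the same promoters. Because the messages are tied to these phases, their levels in a tissue are widely read as a measure of how many of its cells are cycling. In bulk tissue, fewer cycling cells and less message per cycling cell cannot be told apart.

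The promoters below are examples of the E2F, CHR and CCAAT motifs, and the comparison of the lists follows them. They were taken from RefSeq on build GRCm38.p6 and run from 250 bases before to 50 bases after the annotated start. They were chosen after the values were seen, Mcm6 for its E2F forms, Cdk1 because it holds all 3 motif kinds, and Plk1, Cdc20 and Top2a because their levels are described further on. The regions are chr1:128359656-128359955 on the minus strand for Mcm6, chr10:69352863-69353162 on the minus strand for Cdk1, chr7:122159185-122159484 on the plus strand for Plk1, chr4:118437294-118437593 on the minus strand for Cdc20 and chr11:99024140-99024439 on the minus strand for Top2a. Capitals mark every match, on either strand, to the CCAAT box (CCAAT), the CHR element (TTTGAA) or the E2F forms TTTGGCGC, TTTCCCGC, TTTCGCGC, TTTGCCGC, TTTGGCGG and TTTCCCGG. Overlapping E2F matches run together.
Mcm6: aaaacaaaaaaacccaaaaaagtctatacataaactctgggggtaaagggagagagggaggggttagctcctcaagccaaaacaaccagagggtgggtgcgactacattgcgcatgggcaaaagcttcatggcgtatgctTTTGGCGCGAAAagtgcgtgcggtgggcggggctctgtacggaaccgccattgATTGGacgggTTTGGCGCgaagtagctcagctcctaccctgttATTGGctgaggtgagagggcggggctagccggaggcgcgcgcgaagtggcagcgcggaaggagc
Cdk1: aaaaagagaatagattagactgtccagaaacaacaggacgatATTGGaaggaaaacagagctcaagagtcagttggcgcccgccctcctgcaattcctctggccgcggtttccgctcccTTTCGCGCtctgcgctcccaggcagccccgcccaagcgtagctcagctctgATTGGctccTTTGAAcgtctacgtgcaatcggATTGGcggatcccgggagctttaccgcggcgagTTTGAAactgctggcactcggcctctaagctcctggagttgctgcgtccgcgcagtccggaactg
Plk1: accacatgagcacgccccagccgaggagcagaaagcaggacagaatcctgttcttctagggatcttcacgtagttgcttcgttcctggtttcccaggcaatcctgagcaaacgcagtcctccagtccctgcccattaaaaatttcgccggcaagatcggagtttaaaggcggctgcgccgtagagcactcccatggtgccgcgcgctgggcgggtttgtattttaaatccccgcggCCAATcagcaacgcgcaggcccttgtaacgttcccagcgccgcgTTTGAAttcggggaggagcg
Cdc20: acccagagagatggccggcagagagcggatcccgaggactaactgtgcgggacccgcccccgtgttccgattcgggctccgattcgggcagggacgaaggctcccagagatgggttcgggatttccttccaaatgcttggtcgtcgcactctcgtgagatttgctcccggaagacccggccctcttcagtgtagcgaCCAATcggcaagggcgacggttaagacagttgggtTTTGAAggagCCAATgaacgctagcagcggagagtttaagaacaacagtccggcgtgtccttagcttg
Top2a: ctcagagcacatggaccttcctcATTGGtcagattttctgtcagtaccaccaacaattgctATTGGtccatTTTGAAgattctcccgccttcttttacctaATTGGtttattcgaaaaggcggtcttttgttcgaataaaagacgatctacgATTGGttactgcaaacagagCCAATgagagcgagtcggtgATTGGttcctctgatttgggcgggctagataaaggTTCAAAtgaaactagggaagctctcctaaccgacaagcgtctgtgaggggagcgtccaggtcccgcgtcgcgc

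A promoter was found for 22 of the 26 replication genes and 23 of the 28 mitosis genes. The CHR letters stood in 15 of the 23 mitosis genes (65.2%), in 3 of the 22 replication genes (13.6%) and in 20.2% of all 27025 genes with a promoter. An E2F form stood in 3 of the 23 mitosis genes, 10 of the 22 replication genes (45.5%) and 4.55% of all genes. The CCAAT box was found in 73.9% of the mitosis genes, 59.1% of the replication genes and 41.1% of all genes, and both CCAAT and CHR in 60.9%, 9.09% and 7.97%. These matches describe letters in a 300-base window and are not evidence of binding.

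**Figure D1:**
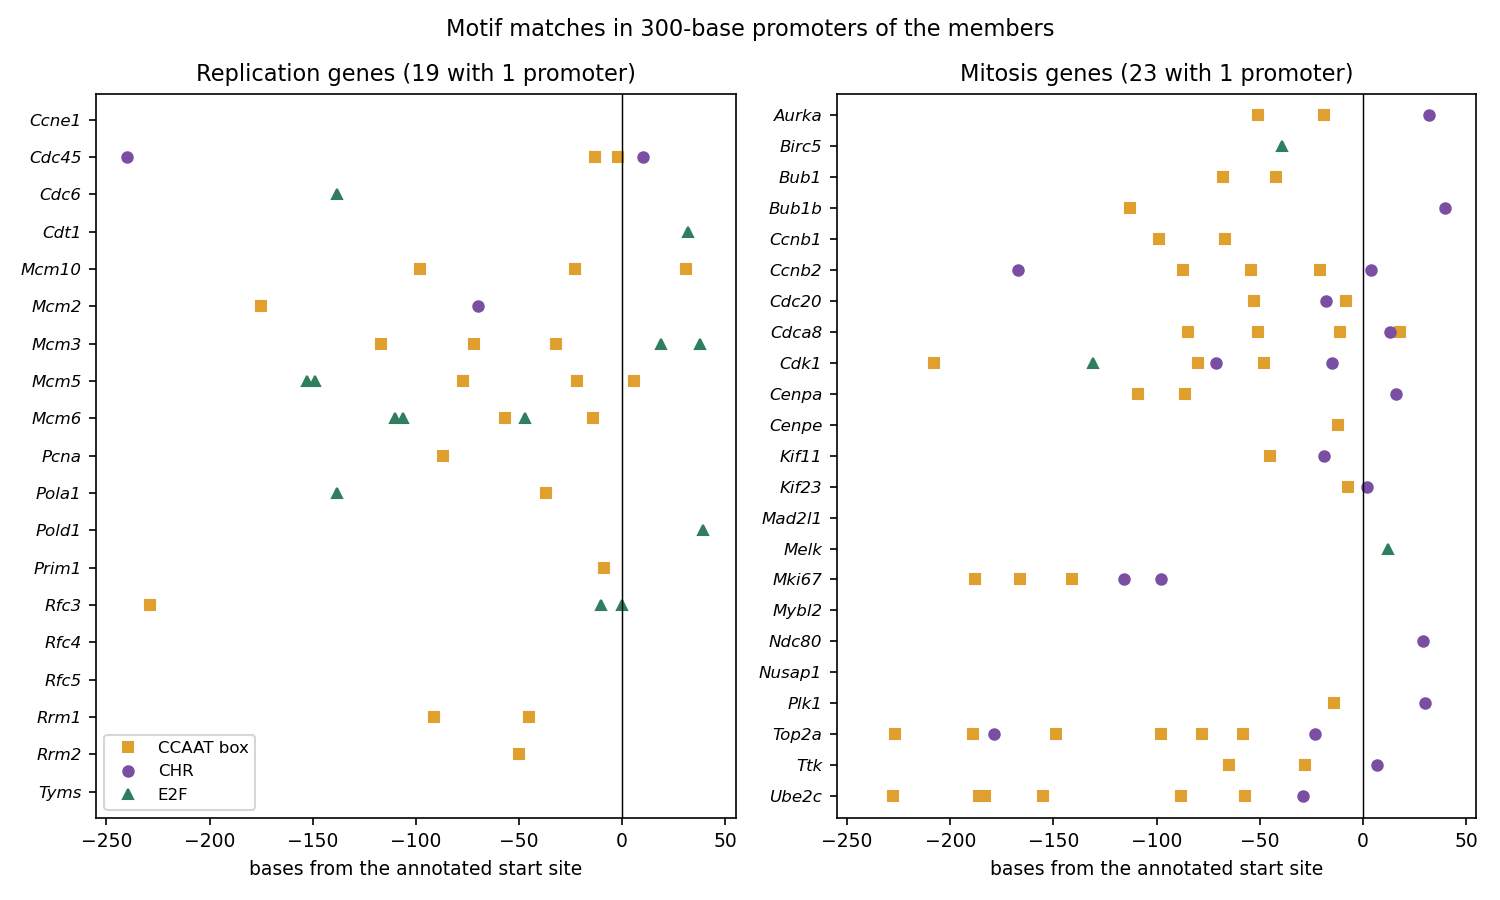
Positions of CCAAT (orange squares), CHR (purple circles) and E2F (green triangles) matches in the promoters of the 19 replication genes and 23 mitosis genes with 1 promoter each, as bases from the annotated start site on the x axis. CHR matches are few on the left and stand in most rows on the right, many of them close to the start site.

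No member passed an adjusted p of 0.05 for the treatment in limma, in either direction. The replication genes gave 0 of 24 and the mitosis genes 0 of 19, against 0.215% of all genes (21 of 9788, all lower in CSF1Ri). At an unadjusted p under 0.05, 1 of 24 replication genes (Lig1) and 1 of 19 mitosis genes (Ndc80) were lower and none was higher, beside 3.80% of all genes lower and 3.73% higher (7.53% together). With the Hyb_B arrays left out, 0 of 24 and 0 of 19 reached that threshold, beside 369 lower and 334 higher of 9788 genes. The 2 groups of tumours overlapped in level for all 43 members, and 1.42% of all genes were lower and 1.46% higher without overlap.

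The differences were small and mostly below 0. The log2 fold change was negative for 19 of 24 replication genes (79.2%) and 16 of 19 mitosis genes (84.2%), beside 47.0% of all genes. Its median was -0.08 for replication and -0.10 for mitosis, beside 0.01 for all genes. Replication genes ran from -0.28 (Mcm7) to 0.13 (Rfc3) and mitosis genes from -0.40 (Tpx2) to 0.08 (Plk1). Each 95% interval is that of 1 gene by its brightest kept probe, and other probes could differ, as given further on. Over the replication genes the outermost bounds were -0.67 and 0.63, which are 1.59-fold down and 1.54-fold up. Over the mitosis genes they were -0.87 and 0.53, which are 1.83-fold down and 1.44-fold up. All 43 intervals lay inside a 2-fold change, as did those of 9091 of the 9788 genes.

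**Figure D2:**
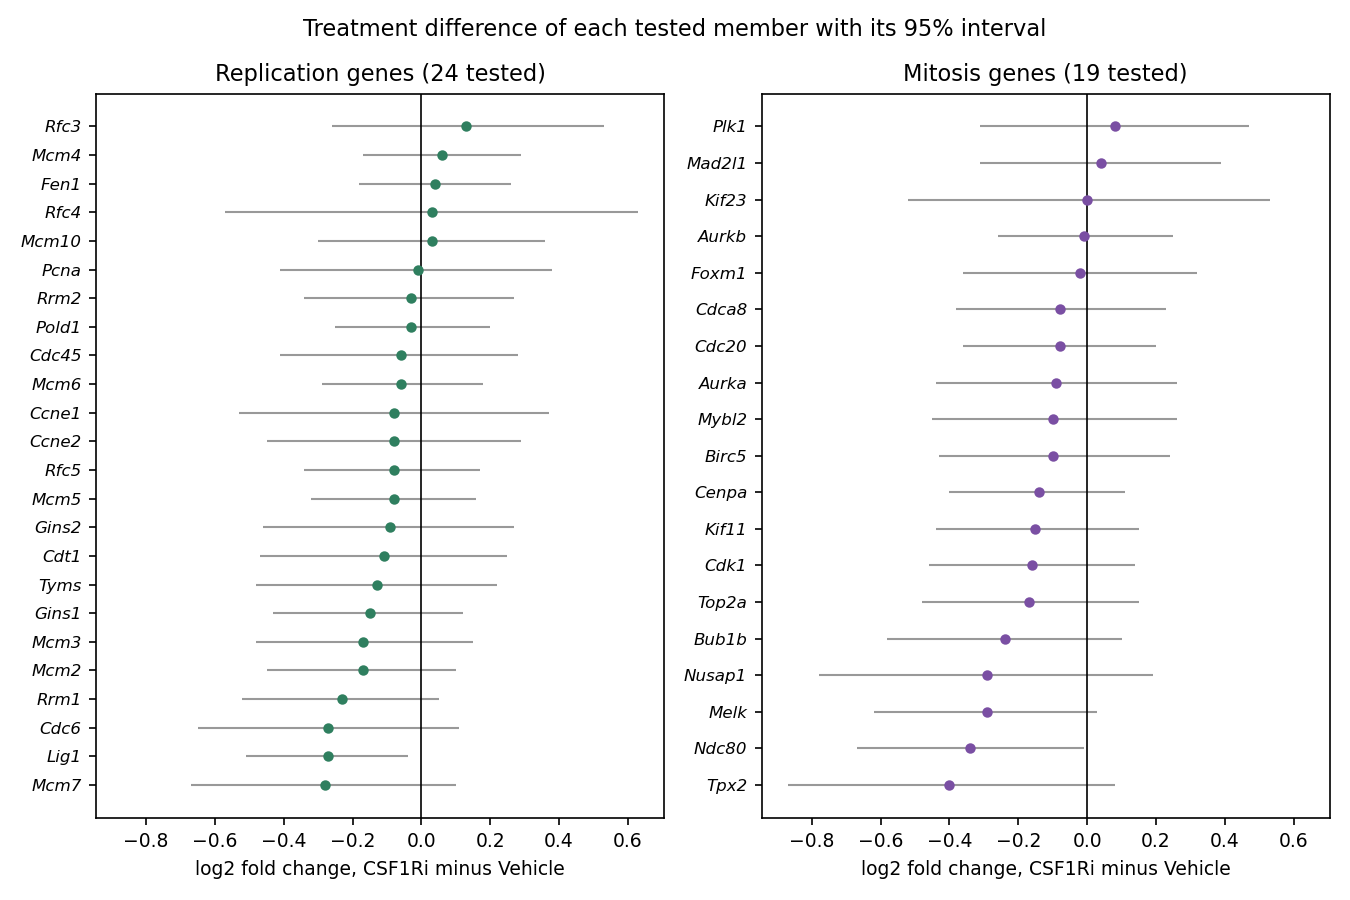
Log2 fold change (CSF1Ri minus Vehicle, x axis) of each tested replication gene (left) and mitosis gene (right), as points with 95% intervals from limma over 4 Vehicle and 5 CSF1Ri tumours. Most points lie left of 0, from -0.40 to 0.13, and 2 intervals, those of Lig1 and Ndc80, do not reach 0.

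Among the subunits of the MCM helicase, which unwinds DNA at the fork, 5 of 6 had a negative log2 fold change, with a median of -0.13 and a range of -0.28 to 0.06. Mcm7 stood at 8.15, 7.85, 8.17 and 8.56 in Vehicle 1 to 4 and at 7.92, 7.59, 7.65, 8.12 and 8.21 in CSF1Ri 1 to 5 (log2 fold change -0.28, 95% interval -0.67 to 0.10, adjusted p = 0.826). Its highest tumour was Vehicle 4 and its lowest CSF1Ri 2, and a dimmer probe of the gene gave a log2 fold change of 0.40. Mcm2 was at 9.27, 8.94, 9.43 and 9.09 in Vehicle 1 to 4 and at 9.10, 9.14, 9.03, 8.96 and 8.82 in CSF1Ri 1 to 5 (log2 fold change -0.17, 95% interval -0.45 to 0.10, adjusted p = 0.881). Mcm5 was at 10.45, 10.70, 10.82 and 10.56 in Vehicle 1 to 4 and at 10.56, 10.69, 10.54, 10.47 and 10.47 in CSF1Ri 1 to 5 (log2 fold change -0.08, 95% interval -0.32 to 0.16, adjusted p = 0.953), a difference within the spread of either group. The log2 fold changes of Mcm3, Mcm4 and Mcm6 were -0.17, 0.06 and -0.06.

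The 6 factors that load or start the helicase had a median log2 fold change of -0.10 and a range of -0.27 to 0.03. Cdc6, which loads the helicase on origins, was at 6.81, 6.32, 6.53 and 6.30 in Vehicle 1 to 4 and at 6.47, 6.31, 5.72, 6.35 and 6.25 in CSF1Ri 1 to 5 (log2 fold change -0.27, 95% interval -0.65 to 0.11, adjusted p = 0.838). The low value is that of CSF1Ri 3 and the other CSF1Ri tumours lay within the Vehicle range or just under it. Cdt1, which loads the helicase together with Cdc6, had a log2 fold change of -0.11. Cdc45, Gins1 and Gins2, which complete the working helicase, had log2 fold changes of -0.06, -0.15 and -0.09, and that of the initiation factor Mcm10 was 0.03.

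Of the polymerase, clamp and ligase genes, 4 of 7 were negative, with a median log2 fold change of -0.01. Lig1, the ligase that seals the fragments of the lagging strand, was at 8.48, 8.65, 8.83 and 8.76 in Vehicle 1 to 4 and at 8.26, 8.44, 8.46, 8.36 and 8.50 in CSF1Ri 1 to 5 (log2 fold change -0.27, 95% interval -0.51 to -0.04, adjusted p = 0.542, unadjusted p = 0.0275). The CSF1Ri tumours lay at or under 8.50 and the Vehicle tumours at or above 8.48, so that CSF1Ri 5 and Vehicle 1 overlap by a narrow margin. Rfc3, a subunit of the clamp loader, was at 4.86, 5.46, 5.61 and 5.31 in Vehicle 1 to 4 and at 5.52, 5.43, 5.55, 5.02 and 5.69 in CSF1Ri 1 to 5 (log2 fold change 0.13, 95% interval -0.26 to 0.53, adjusted p = 0.955). Pcna, the sliding clamp, was at 5.20, 4.66, 4.71 and 5.30 in Vehicle 1 to 4 and at 4.87, 4.59, 5.29, 4.98 and 5.06 in CSF1Ri 1 to 5 (log2 fold change -0.01, 95% interval -0.41 to 0.38, adjusted p = 0.998). Its only kept probe was detected on 7 of 12 arrays, so its level lay near the background, where any difference would be understated. The other log2 fold changes were those of Pold1, the catalytic subunit of polymerase delta, at -0.03, the flap nuclease Fen1 at 0.04, and the clamp loader subunits Rfc4 and Rfc5 at 0.03 and -0.08.

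All 3 genes of nucleotide supply had negative log2 fold changes. Rrm1, the large subunit of ribonucleotide reductase, was at 8.69, 9.09, 8.97 and 8.91 in Vehicle 1 to 4 and at 8.76, 8.63, 8.95, 8.62 and 8.44 in CSF1Ri 1 to 5 (log2 fold change -0.23, 95% interval -0.52 to 0.05, adjusted p = 0.766). Vehicle 1 lay among the CSF1Ri tumours and CSF1Ri 3 among the Vehicle tumours. Rrm2, the small subunit, was at 7.89, 8.12, 8.10 and 7.68 in Vehicle 1 to 4 and at 8.22, 7.69, 7.95, 7.84 and 7.87 in CSF1Ri 1 to 5 (log2 fold change -0.03, 95% interval -0.34 to 0.27, adjusted p = 0.99), and Tyms, which makes thymidylate, differed by -0.13. Ccne1, a cyclin E that activates CDK2 before S phase, was at 5.91, 5.98, 5.66 and 6.04 in Vehicle 1 to 4 and at 5.29, 5.64, 6.44, 5.78 and 5.95 in CSF1Ri 1 to 5 (log2 fold change -0.08, 95% interval -0.53 to 0.37, adjusted p = 0.981), and the other cyclin E gene, Ccne2, differed by -0.08. Like Pcna, Ccne2 was detected on 7 of 12 arrays, so any difference in its level would be understated too.

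Of the mitotic cyclins and their kinase, Cdk1 alone was measured above the detection limit. Cdk1 was at 8.59, 9.10, 9.19 and 8.94 in Vehicle 1 to 4 and at 8.95, 8.71, 8.75, 8.67 and 8.89 in CSF1Ri 1 to 5 (log2 fold change -0.16, 95% interval -0.46 to 0.14, adjusted p = 0.907). Its level was lowest in Vehicle 1, and the other Vehicle tumours lay at or above 8.94, beside a highest CSF1Ri value of 8.95. Top2a, the topoisomerase that untangles sister chromatids, was at 8.95, 9.56, 9.38 and 9.62 in Vehicle 1 to 4 and at 9.16, 9.14, 9.32, 9.30 and 9.12 in CSF1Ri 1 to 5 (log2 fold change -0.17, 95% interval -0.48 to 0.15, adjusted p = 0.911). Again Vehicle 1 was the lowest of the 9 tumours, and the other Vehicle tumours were the highest. With Vehicle 1 set aside, 3.16% of all genes were lower in CSF1Ri without overlap.

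The 3 measured genes of the chromosomal passenger complex, which corrects faulty attachments, ran from -0.10 to -0.01. Birc5 (survivin) was at 9.69, 10.11, 10.33 and 10.11 in Vehicle 1 to 4 and at 10.05, 9.95, 10.27, 9.76 and 9.80 in CSF1Ri 1 to 5 (log2 fold change -0.10, 95% interval -0.43 to 0.24, adjusted p = 0.966). Aurkb, its kinase, was at 7.61, 7.63, 7.76 and 7.67 in Vehicle 1 to 4 and at 7.79, 7.36, 7.71, 7.61 and 7.82 in CSF1Ri 1 to 5 (log2 fold change -0.01, 95% interval -0.26 to 0.25, adjusted p = 0.998), and Cdca8 differed by -0.08. For Birc5, Vehicle 1 was the lowest tumour of the 9, while the Aurkb values of both groups overlapped throughout.

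Among the mitotic kinases, Plk1, which acts from mitotic entry to exit, was at 8.70, 9.40, 9.43 and 9.35 in Vehicle 1 to 4 and at 9.44, 9.11, 9.01, 9.50 and 9.44 in CSF1Ri 1 to 5 (log2 fold change 0.08, 95% interval -0.31 to 0.47, adjusted p = 0.977). The Vehicle 1 level stood apart, since the other Vehicle tumours lay at 9.35 to 9.43. Melk, a kinase with peak expression in mitosis, was at 5.07, 5.55, 5.61 and 5.18 in Vehicle 1 to 4 and at 5.26, 4.88, 4.96, 4.99 and 5.21 in CSF1Ri 1 to 5 (log2 fold change -0.29, 95% interval -0.62 to 0.03, adjusted p = 0.71), and Aurka, the centrosome kinase, differed by -0.09. In the spindle checkpoint, Bub1b was at 7.82, 7.89, 8.17 and 8.19 in Vehicle 1 to 4 and at 7.73, 7.62, 7.47, 7.95 and 8.13 in CSF1Ri 1 to 5 (log2 fold change -0.24, 95% interval -0.58 to 0.10, adjusted p = 0.838). Cdc20, which activates the anaphase-promoting complex, was at 9.72, 10.16, 10.20 and 10.18 in Vehicle 1 to 4 and at 10.19, 9.96, 9.87, 9.90 and 10.01 in CSF1Ri 1 to 5 (log2 fold change -0.08, 95% interval -0.36 to 0.20, adjusted p = 0.966), and the checkpoint gene Mad2l1 differed by 0.04. Vehicle 1 was the lowest of the 9 tumours for Plk1 and Cdc20, but not for Melk or Bub1b.

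At the kinetochore, Ndc80, the microtubule-binding subunit, was at 6.94, 7.39, 7.62 and 7.28 in Vehicle 1 to 4 and at 7.13, 6.87, 6.74, 7.10 and 7.01 in CSF1Ri 1 to 5 (log2 fold change -0.34, 95% interval -0.67 to -0.01, adjusted p = 0.633, unadjusted p = 0.044). Apart from Vehicle 1, which lay among the CSF1Ri tumours, the Vehicle values were above all CSF1Ri values. With Vehicle 1 set aside, 2 of 19 mitosis genes (10.5%) and 2 of 24 replication genes (8.33%) were lower without overlap. The share of all genes was 3.16%. Cenpa, the centromere histone, differed by -0.14. Of the spindle genes, Tpx2, which activates Aurora A on microtubules, was at 5.99, 5.79, 6.09 and 6.55 in Vehicle 1 to 4 and at 5.90, 5.50, 5.13, 6.08 and 5.93 in CSF1Ri 1 to 5 (log2 fold change -0.40, 95% interval -0.87 to 0.08, adjusted p = 0.756). Nusap1, a microtubule-binding protein, was at 8.75, 8.03, 8.60 and 8.69 in Vehicle 1 to 4 and at 8.51, 7.83, 7.78, 8.36 and 8.65 in CSF1Ri 1 to 5 (log2 fold change -0.29, 95% interval -0.78 to 0.19, adjusted p = 0.888). For both genes the lowest CSF1Ri value was that of CSF1Ri 3, and both differed between the array sets described further on. The motors Kif11 and Kif23 differed by -0.15 and 0.00. Of the transcription factors, Foxm1 was at 6.81, 7.38, 7.37 and 7.27 in Vehicle 1 to 4 and at 7.28, 6.94, 7.50, 7.12 and 7.09 in CSF1Ri 1 to 5 (log2 fold change -0.02, 95% interval -0.36 to 0.32, adjusted p = 0.996), and Mybl2 (B-MYB) differed by -0.10.

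**Figure D3:**
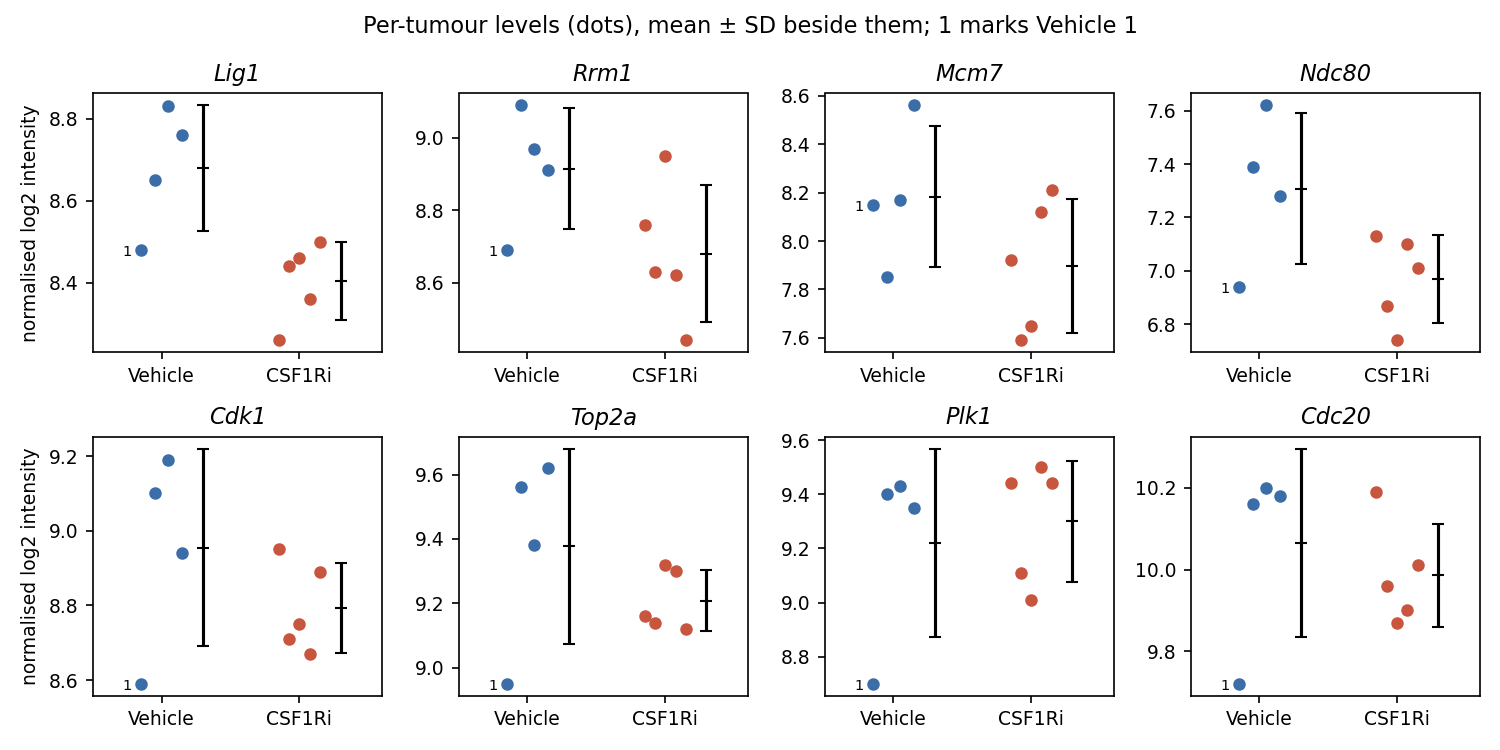
Normalised log2 intensity (y axis, its range set for each panel) of 3 replication genes (Lig1, Rrm1, Mcm7) and 5 mitosis genes (Ndc80, Cdk1, Top2a, Plk1, Cdc20), 1 dot per tumour with the mean and SD beside it and Vehicle 1 marked. In the 5 mitosis panels Vehicle 1 stands below the other Vehicle tumours, and at 8.70 for Plk1 and 9.72 for Cdc20 it is the lowest tumour of all.

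The 11 members that were not tested leave gaps in the mitosis list. Mki67 and Ccnb1 had no probe named in the annotation used. The replication genes Pola1 and Prim1, of the priming polymerase, and the mitosis genes Ccna2, Ccnb2, Bub1, Ttk, Cenpe and Kif20a had probes that were detected on 0 of 12 arrays, and that of Ube2c on at most 1. No level is given for these 11, and 26 of the 110 probes of the members were detected on no array.

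Levels of the mitosis genes tended to go together from tumour to tumour. The median Pearson correlation over pairs of members was 0.47 for mitosis (171 pairs), 0.07 for replication (276 pairs) and 0.26 between the lists, over 9 tumours. With the group means removed the medians were 0.46, 0.05 and 0.21. With the array sets described further on removed as well, they were 0.54, 0.09 and 0.26. No median over pairs of all genes is given, so whether these values exceed that of other genes is not known. These are descriptions without a test, all points share the same arrays, and they were computed after the values were seen.

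Relative to each gene's mean over the 9 tumours, the replication genes averaged -0.03, 0.02, 0.13 and 0.08 in Vehicle 1 to 4 and 0.02, -0.13, -0.02, -0.07 and 0.00 in CSF1Ri 1 to 5. The mitosis genes averaged -0.20, 0.16, 0.21 and 0.12 in Vehicle 1 to 4 and 0.04, -0.21, -0.06, -0.07 and 0.01 in CSF1Ri 1 to 5. Vehicle 2, 3 and 4 were thus the highest tumours for mitosis, and Vehicle 1 and CSF1Ri 2 the lowest. The group means were 0.05 ± 0.07 (SD, n = 4) and -0.04 ± 0.06 (SD, n = 5) for replication and 0.07 ± 0.18 (SD, n = 4) and -0.06 ± 0.10 (SD, n = 5) for mitosis. The acinar markers, of the normal exocrine pancreas (8 of 10 tested), averaged 1.11 ± 0.84 in Vehicle and -0.89 ± 2.53 in CSF1Ri, from -4.51 in CSF1Ri 1 to 2.16 in CSF1Ri 5. Their summed level on the log2 scale ran from 14.84 to 16.15 in Vehicle and from 9.59 to 16.32 in CSF1Ri, and their part in the group differences was not tested.

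**Figure D4:**
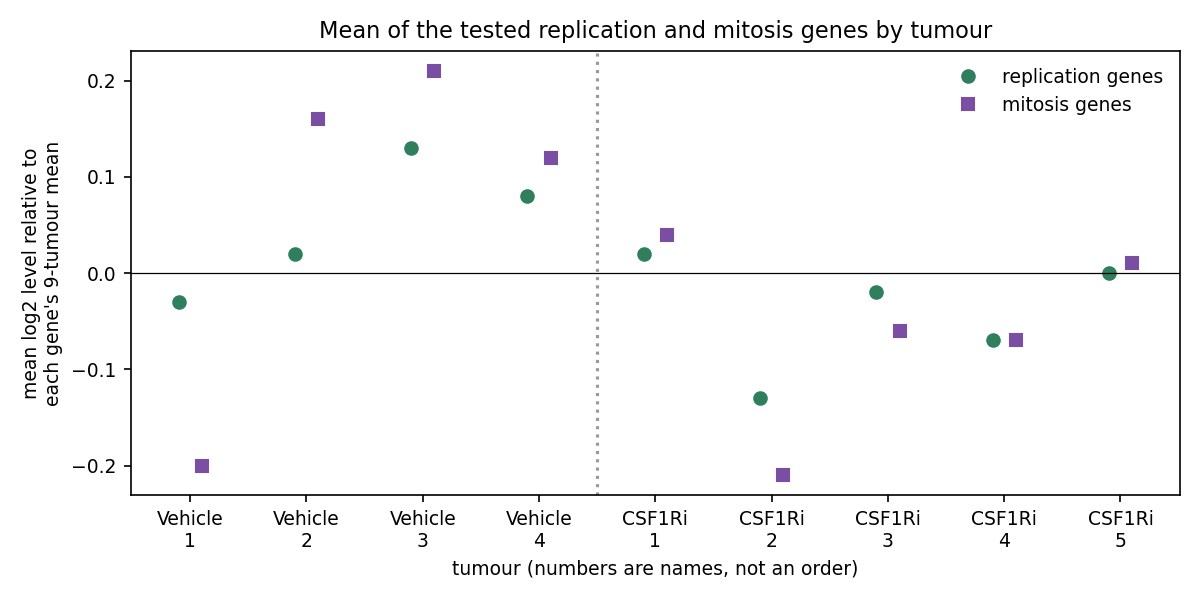
Mean log2 level of the 24 replication genes (circles) and 19 mitosis genes (squares) in each tumour, relative to each gene's mean over the 9 tumours. The mitosis squares of Vehicle 1 and CSF1Ri 2, at -0.20 and -0.21, lie well below those of Vehicle 2, 3 and 4, at 0.12 to 0.21.

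Vehicle 1 was the lowest Vehicle tumour for 16 of 19 mitosis genes (84.2%) and 10 of 24 replication genes (41.7%), beside 27.9% of all genes. This count was made after the values were seen. Both arrays of this tumour gave the low values: Plk1 read 8.71 and 8.69, and Cdc20 9.85 and 9.59. Of the mitosis genes with a promoter in the table, Vehicle 1 was the lowest Vehicle tumour for all 11 tested genes with a CHR match and for 3 of 5 without one. The same held for 3 of 3 mitosis genes with an E2F match and 11 of 13 without one. Of the replication genes it held for 2 of 3 with a CHR match and 7 of 17 without one. A link between motif and level was not tested. Vehicle 1 also had the highest mean of the neutrophil and granulocyte precursor markers, at 2.61 beside -0.30 to 1.21 in the other Vehicle tumours and -1.57 to 0.55 in CSF1Ri. Its erythroid marker mean was 2.04, beside -0.69 to 0.16 in the other Vehicle tumours and -0.86 to 0.90 in CSF1Ri, and its fibroblast (-0.40) and T cell (-0.94) marker means were the lowest of the 9. Its macrophage marker mean was the lowest of the Vehicle tumours, at 0.51 beside 0.94 to 0.98, and its tumour epithelium mean the highest of them, at 0.20 beside -0.29 to -0.03. CSF1Ri 2, the other tumour with a low mitosis mean, had the highest epithelium mean of the 9, at 0.43, and a neutrophil mean of -1.57, the lowest of the 9. Of these lists, 9 of 10 neutrophil, 6 of 9 erythroid, 8 of 8 fibroblast and 5 of 9 T cell genes were tested, and the T cell gene Cd8a was detected on no array. Their summed levels on the log2 scale ran from 11.05 to 14.01 in Vehicle and from 9.90 to 12.23 in CSF1Ri for neutrophils and from 12.28 to 14.38 and from 12.19 to 14.27 for erythroid genes. They ran from 11.86 to 12.70 and from 11.98 to 13.14 for fibroblasts and from 11.16 to 11.42 and from 11.20 to 11.76 for T cells. For tumour epithelium (9 of 10 tested) they ran from 14.64 to 15.24 and from 14.78 to 15.22, and for macrophages (8 of 10 tested) from 12.18 to 12.99 and from 10.66 to 11.83. The part of these cell types in the low mitosis values was not tested.

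Without Vehicle 1 all 19 mitosis genes had a negative log2 fold change and their median was -0.22. In that fit 4 of 19 (21.1%) were lower at an unadjusted p under 0.05, beside 4.51% of all genes, and 0 of 19 passed adjustment. They were Ndc80 (-0.46, adjusted p = 0.343), Top2a (-0.31, adjusted p = 0.476), Melk (-0.39, adjusted p = 0.492) and Cdk1 (-0.28, adjusted p = 0.564). The replication median was then -0.11, with 2 of 24 lower at an unadjusted p under 0.05, Lig1 (-0.34, adjusted p = 0.406) and Rrm1 (-0.31, adjusted p = 0.590), and 0 passed. Leaving out Vehicle 2 instead took the mitosis median to -0.05, and leaving out CSF1Ri 3 took it to -0.16. Over the 9 fits that leave out 1 tumour each, the mitosis median stayed between -0.22 and -0.05. Of the 19 mitosis genes, 0 had an unadjusted p under 0.05 without Vehicle 2, 3 or 4 or CSF1Ri 2 or 3, and 1 without CSF1Ri 1, 4 or 5. Of the 24 replication genes, 2 did so without CSF1Ri 3, 1 without Vehicle 2 or CSF1Ri 2 or 5, and 0 without Vehicle 3 or 4 or CSF1Ri 1 or 4. Of all 9788 genes, 288 were lower and 380 higher at that threshold without Vehicle 2. The counts were 294 and 279 without Vehicle 3, and 338 and 314 without Vehicle 4. For the fits without a CSF1Ri tumour no count over all genes is given, so the member counts of those fits have no background here. With all 9 tumours, 7.53% of all genes reached the threshold in either direction, a share that moved with the tumour left out. Vehicle 1 was left out because it was seen to be low for mitosis, so the larger mitosis difference without it follows in part from that choice.

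The arrays fell into a dimmer and a brighter set of 6 each by mean unscaled intensity, from 142 to 316, with 3 Vehicle and 3 CSF1Ri arrays in each set. In every tumour with 2 arrays the first was in the dimmer set and Hyb_B in the brighter. The single arrays of Vehicle 2, CSF1Ri 2 and CSF1Ri 3 were in the dimmer set and those of Vehicle 4, CSF1Ri 4 and CSF1Ri 5 in the brighter. The labels name no slide or batch for these sets. A limma fit added after the data were seen, with array set as a term and tumour as a random block, called 880 of 9788 genes (8.99%) between the sets, 5 of them members. Brighter minus dimmer was 0.74 for Rfc4 (adjusted p = 0.00113), 0.71 for Pcna (adjusted p = 0.00526), 0.43 for Nusap1 (adjusted p = 0.0100), 0.70 for Tpx2 (adjusted p = 0.0113) and 0.31 for Mcm7 (adjusted p = 0.0333). All 5 were higher on the brighter arrays. Lig1 and Ndc80, the members at an unadjusted p under 0.05 for the treatment, were not called between the sets. Their brighter minus dimmer differences were 0.21 (adjusted p = 0.0948) and 0.28 (adjusted p = 0.0718).

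In the 3 tumours with both arrays, which are part of that fit, Rfc4, Pcna, Nusap1 and Tpx2 rose in each. Mcm7 rose in Vehicle 1 and CSF1Ri 1 but went from 8.19 to 8.14 in Vehicle 3. Rfc4 went from 6.76 to 7.41 in Vehicle 1, from 6.89 to 7.22 in Vehicle 3 and from 6.42 to 7.48 in CSF1Ri 1. In the tumours with 1 array, which had no second hybridisation, Rfc4 read 6.16, 6.53 and 6.37 on the dimmer arrays of Vehicle 2, CSF1Ri 2 and CSF1Ri 3 and 7.21, 7.43 and 7.25 on the brighter arrays of Vehicle 4, CSF1Ri 4 and CSF1Ri 5. Pcna went from 4.73 to 5.66, from 4.45 to 4.98 and from 4.32 to 5.41 in the 3 tumours with both arrays. By contrast Cdk1 went from 8.56 to 8.61, from 9.14 to 9.23 and from 9.01 to 8.89, with no common direction. In these 3 pairs alone limma called 0 of 9788 genes (15.5% at an unadjusted p under 0.05). For each gene the Hyb_B difference was averaged over the 3 tumours, so that shifts of opposite sign cancel. Its median absolute size was 0.10 for each list, beside 0.12 for all genes. The averaged Hyb_B difference was 0.27 for Lig1 and 0.33 for Ndc80, whose treatment differences were -0.27 and -0.34. The median absolute treatment difference was 0.08 for replication, 0.10 for mitosis and 0.11 for all genes. With the array set in the fit, the treatment difference was -0.28 for Mcm7 (adjusted p = 0.577), -0.39 for Tpx2 (adjusted p = 0.748) and -0.29 for Nusap1 (adjusted p = 0.618), close to the values without it. Within the 6 dimmer and the 6 brighter arrays alone, the difference was -0.57 and -0.12 for Tpx2, -0.34 and -0.25 for Nusap1 and -0.35 and -0.20 for Mcm7, with no call in either set.

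**Figure D5:**
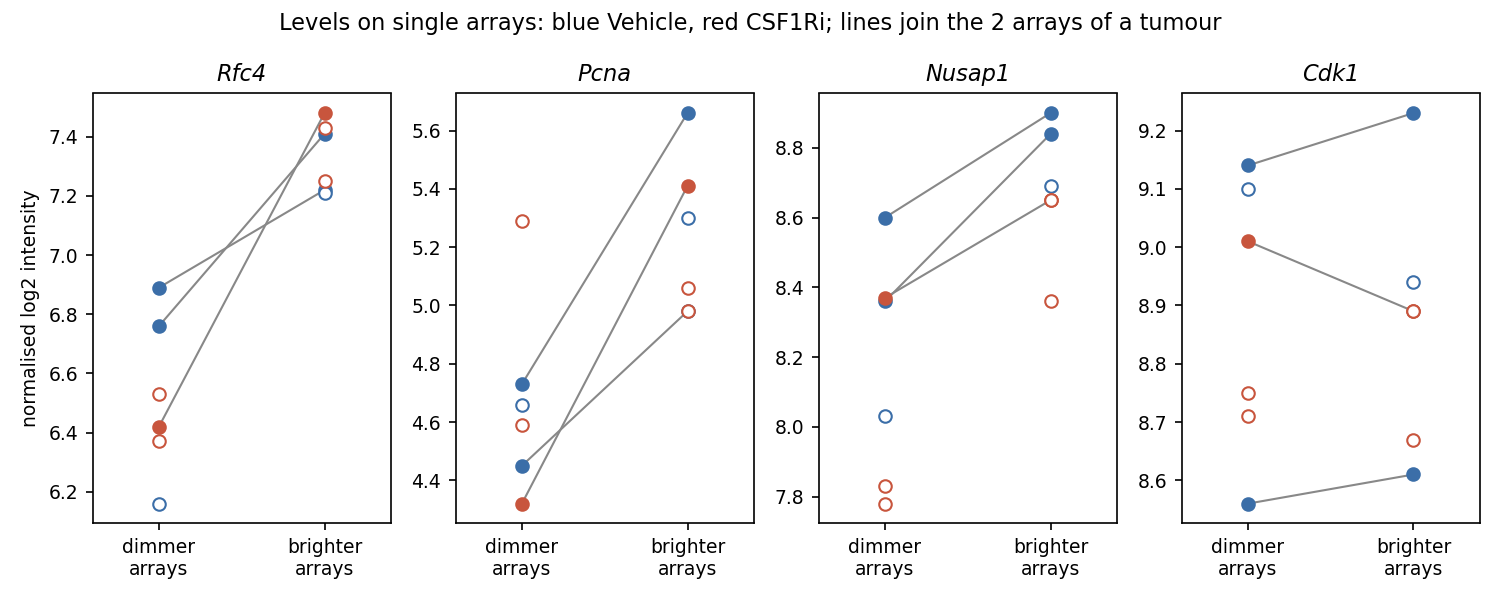
Normalised log2 intensity of Rfc4, Pcna, Nusap1 and Cdk1 on the 6 dimmer and 6 brighter arrays, Vehicle in blue and CSF1Ri in red. Filled points joined by lines are the 2 arrays of Vehicle 1, Vehicle 3 and CSF1Ri 1, and open points are tumours with 1 array. All 3 lines rise for Rfc4, Pcna and Nusap1, and for Cdk1 they do not share a direction.

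Of the 43 tested members, 18 had several kept probes, and in 8 of these the probes differed in the sign of their fold change. The 8 were Mcm10, Mcm7 and Rrm2 of replication and Birc5, Cdc20, Cdca8, Kif23 and Mad2l1 of mitosis. Mcm7 had the widest gap, with -0.28 by the brighter probe (unadjusted p = 0.136) and 0.40 by the dimmer (unadjusted p = 0.0869). Rrm2 gave -0.03 and 0.27, and Cdca8 -0.08 and 0.36. Bub1b gave -0.24 and, by its second probe, -0.32 (unadjusted p = 0.0216), and the second probe of Rfc4 gave 0.30 (unadjusted p = 0.0432) where the brighter gave 0.03. None of the 67 kept probes passed adjustment over all kept probes in limma, and 4 had an unadjusted p under 0.05, those 2 and the probes of Lig1 and Ndc80. Among all genes, each by 1 probe, 7.53% had an unadjusted p under 0.05.

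Other genes of the same processes were listed from general knowledge. For comparison, 47.0% of all genes were negative, 3.80% were lower at an unadjusted p under 0.05 and 1.42% were lower without overlap. Of 30 other replication genes, 21 were negative, the median log2 fold change was -0.07 and 0 were called. Timeless, which protects the fork, was the only one at an unadjusted p under 0.05, at 6.94, 6.87, 6.94 and 7.13 in Vehicle 1 to 4 and at 6.49, 6.40, 6.62, 6.87 and 6.78 in CSF1Ri 1 to 5 (log2 fold change -0.34, 95% interval -0.61 to -0.06, adjusted p = 0.495). The maintenance methyltransferase gene Dnmt1 (log2 fold change -0.18, 95% interval -0.40 to 0.04, adjusted p = 0.758) was the only one of the 30 whose groups did not overlap, at 8.09 to 8.39 in Vehicle and 7.94 to 8.09 in CSF1Ri, touching at the printed precision. Of 35 other mitosis genes, 27 were negative, the median was -0.13 and 0 were called. The phosphatase gene Cdc25c, which activates CDK1, was the only one at an unadjusted p under 0.05 (log2 fold change -0.31, 95% interval -0.57 to -0.06, adjusted p = 0.502), and the condensin gene Ncapd2 came next (log2 fold change -0.26, 95% interval -0.57 to 0.04, adjusted p = 0.739). Vehicle 1 was the lowest Vehicle tumour for 25 of these 35 genes (71.4%) and for 15 of the 30 other replication genes, beside 27.9% of all genes.

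Regulators of G1 and inhibitors of the cell cycle were listed in the same way. Of 28 tested, 18 were positive, the median log2 fold change was 0.05 and 0 were called. At an unadjusted p under 0.05, 3 of 28 were higher, beside 3.73% of all genes. They were Lin54 (log2 fold change 0.30, 95% interval 0.03 to 0.56, adjusted p = 0.564), a DNA-binding subunit of the DREAM complex, Ccnd1 (log2 fold change 0.26, 95% interval 0.02 to 0.49, adjusted p = 0.58), which encodes cyclin D1, and Cdkn1b (log2 fold change 0.37, 95% interval 0.01 to 0.72, adjusted p = 0.628), which encodes the inhibitor p27 and was detected on 4 of 6 Vehicle and 5 of 6 CSF1Ri arrays. Ccnd1 was at 13.09, 13.48, 13.17 and 13.29 in Vehicle 1 to 4 and at 13.59, 13.50, 13.42, 13.52 and 13.57 in CSF1Ri 1 to 5, with Vehicle 2 inside the CSF1Ri range.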

How the data were processed

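RNA of 9 mouse tumours was measured on 12 Illumina BeadArrays. Groups came from the treatment label and numbers from the titles. Nothing in the labels says that the samples of a group are separate animals, so p-values measure the spread between these samples. Per the file headers, the authors deposited for 45281 probes an unscaled intensity and a detection p-value. The authors also deposited a processed intensity, found from the values to be the unscaled intensity times 1 factor per array (0.672 to 1.49), uncentred and linear, with a mean of 212.02 and medians of 3.61 to 5.35. The sources used here do not name the software.

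For this work limma 3.58.1 (R 4.3.3) normalised the unscaled intensities by neqc (background from detection p-values, offset 16, quantile, log2), and arrays of a tumour were averaged. Probes with 1 annotated symbol, detected at p under 0.05 on every array of at least 4 tumours, were kept (14378), and the brightest stood for a gene. In the annotation 34885 probes had 1 symbol, 18 several and 10378 none. Groups were compared with lmFit and eBayes without covariates, and p-values were Benjamini-Hochberg adjusted over 9788 genes at a threshold of 0.05. Intervals are 95% from the moderated standard error. The offset understates differences of dim genes, and the number of arrays limits precision. The fit was tested on simulated data with independent noise for each gene. The planted changes were larger than any member difference found here, so that test does not tell how well such small differences are found.

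The members and gene lists were chosen with earlier results of these data known. Values by tumour are given for preset members, for the 5 members of each list with the smallest p, for the highest and lowest fold change of each list, and, chosen after its values were seen, for Cdc20. Alternatives covered the authors' processed values, cyclic loess, an offset of 50 without detection p-values, both filters on dim probes, the mean of probes, Hyb_B left out, a replicate block, each array set alone and each tumour left out. A fit with the array set as a term was added after the data were seen. Replicate numbers are shared by Vehicle and CSF1Ri 1 to 4, but deviations of same-numbered tumours correlated at only -0.09, 0.03, 0.12 and 0.34, so the numbers were not taken as pairs.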

Additional observations from a re-analysis of the deposited data

Results flagged for a closer look

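In 5 of 90 groups checked, 1 tumour stood apart from the rest of its group (Dixon's criterion), where chance gives 4.5. Mcm3 was 6.65 in CSF1Ri 4, beside 7.09 to 7.27 in the other CSF1Ri tumours. Cdc6 was 5.72 in CSF1Ri 3, beside 6.25 to 6.47. Rfc4 was 6.16 in Vehicle 2, the Vehicle tumour measured on a dimmer array alone, beside 7.05 to 7.21. Plk1 was 8.70 in Vehicle 1, beside 9.35 to 9.43, and Cdc20 was 9.72 in Vehicle 1, beside 10.16 to 10.20.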

How the results depend on the processing

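Over 20 alternatives, 0 members were called in either list, the replication median ran from -0.11 to -0.06 and the mitosis median from -0.22 to -0.05, where -0.22 and -0.05 came from leaving out Vehicle 1 and Vehicle 2. The standard deviation of the list means over tumours, recomputed under 2 alternatives (the authors' processed values and Hyb_B left out), was 0.08 to 0.09 for replication and 0.15 for mitosis. For the 21 members with values by tumour other than Cdc20, 389 of 419 alternative values kept their sign. In 9 of these members 30 values changed it without a call, and the lowest adjusted p in limma was 0.343. Pcna and Ccne2 could not be fitted when only probes detected on all 12 arrays were kept. Over all genes, the count called lower was 21, and it was 12 without a filter on dim probes, 10 with only probes detected on all 12 arrays, 1 within the dimmer arrays, 11 within the brighter arrays and 46 with the array set as a term. Leaving out a tumour gave 11 to 34 lower (11 without Vehicle 2 or Vehicle 3, 12 without Vehicle 4 or CSF1Ri 5, 34 without CSF1Ri 3). The count called higher was 0, and it was 2 with an offset of 50, 1 without a filter, 1 with the mean of probes, 6 with the array set as a term and 0 to 1 on leaving out a tumour. The cause of these shifts was not tested. With the replicate block, 1 gene was called lower, 0 members were called and the medians were -0.09 for replication and -0.12 for mitosis. The correlations of same-numbered tumours did not establish a pairing and cannot exclude one. No tumour of Vehicle 1 to 4 correlated best with its own number. Signal over background limits what can be said of the 9 members whose probes were not detected in enough tumours, and of Pcna and Ccne2.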
